A study of Mus musculus with 18 samples.

Results

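The promoters of the adult α-globin genes (Hba-1 and Hba-2, chromosome 11) and of the adult β-globin genes (Hbb-b1 and Hbb-b2, chromosome 7) were used as viewpoints of NG Capture-C in the same wild-type (WT) libraries. NG Capture-C digests crosslinked chromatin with DpnII, ligates fragments that lie together in the nucleus, pulls down chosen viewpoint fragments with oligonucleotides and counts the fragments ligated to each of them. The comparison used 6 of the 18 samples of the series, chosen by their labels: 3 WT samples of experiment 1 and 3 WT samples of experiment 2, which were kept apart throughout. The remaining samples carried deletions at the α-globin cluster. Each WT sample held Ter119+ erythroid cells selected from the spleen of adult mice, kept on a C57BL/6J background, that carried no deletion and had been given phenylhydrazine, which destroys red cells and so fills the spleen with erythroid precursors. The submitters called the replicates biological. Of the 9 viewpoint fragments listed for experiment 1 and the 5 listed for experiment 2, the 4 globin promoter fragments were compared. A group of erythroid cells under this stress represents definitive erythropoiesis in the spleen, not that of the marrow.

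Red cell precursors make α- and β-globin in near balance from gene clusters on different chromosomes. Each cluster carries its embryonic genes nearest to a set of distal enhancers and its adult genes further away. At the α cluster the enhancers lie in and beside introns of Nprl3, a neighbouring gene that encodes a part of the GATOR1 complex. At the β cluster they form the locus control region (LCR), which lies beyond the embryonic gene Hbb-y and is surrounded by olfactory receptor genes. Upstream is used here for the side on which these elements lie, as seen from the adult genes and their direction of transcription.

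All coordinates are mm9. The Hba-1 viewpoint fragment was chr11:32182969-32183821 (853 bp). It began 542 bases upstream of the annotated start of Hba-a1 and ended inside that gene. The Hba-2 fragment was chr11:32195804-32196638 (835 bp), and it began 685 bases upstream of Hba-a2. The fragment labelled Hbb-b1 was chr7:110961967-110962817 (851 bp), and the fragment labelled Hbb-b2 was chr7:110975976-110976456 (481 bp). The annotation gives these genes the opposite names: the fragment labelled Hbb-b1 overlay the start of the gene annotated as Hbb-b2, and the fragment labelled Hbb-b2 lay within the gene annotated as Hbb-b1. The labels are used below. By position, Hba-1 and Hbb-b2 were nearest to their regulatory regions, and Hba-2 and Hbb-b1 were farthest. The ends of these fragments, where a DpnII ligation takes place, are shown because they set how well the paired promoters can be told apart. They are written 5′ to 3′ on the coding strand, with capitals at bases that differ between the paired fragments once aligned.

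Hba-1, upstream end: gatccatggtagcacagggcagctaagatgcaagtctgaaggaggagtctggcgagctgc
Hba-2, upstream end: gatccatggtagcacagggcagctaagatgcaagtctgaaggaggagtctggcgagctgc
Hba-1, downstream end: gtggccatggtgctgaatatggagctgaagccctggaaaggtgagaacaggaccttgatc
Hba-2, downstream end: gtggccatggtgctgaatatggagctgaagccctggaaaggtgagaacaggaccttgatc
Hbb-b1, upstream end: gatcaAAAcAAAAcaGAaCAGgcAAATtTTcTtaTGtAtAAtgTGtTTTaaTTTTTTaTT
Hbb-b2, upstream end: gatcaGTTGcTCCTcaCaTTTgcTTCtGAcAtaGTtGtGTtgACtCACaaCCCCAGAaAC
Hbb-b1, downstream end: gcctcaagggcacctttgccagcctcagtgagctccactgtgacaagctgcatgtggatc
Hbb-b2, downstream end: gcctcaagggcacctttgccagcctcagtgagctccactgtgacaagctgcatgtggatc

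The α fragments carried the same 60 bases at both ends and were identical at 832 of 835 aligned bases. The β fragments shared the 60 bases of the downstream end, and 480 of the 481 bases of the shorter fragment matched the longer one. Their upstream ends lay at different DpnII sites and differed at 37 of 60 bases. Fragments of other chromosomes were often listed under both promoters of a cluster. In experiment 1 the share of such fragments ranged from 60.0% to 72.5% of a promoter's list. Between an α and a β promoter it ranged from 1.12% to 1.59%. The paired promoters of a cluster were therefore summed as 1 locus, and their separate values are not independent. Whether the same read was listed under both could not be told from the counts, so summed counts may hold a read more than once.

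The WT samples of experiment 1 held 940582 to 1120609 counts over all viewpoints, and those of experiment 2 held 65610 to 159777. Counts on fragments within 1 kb of any viewpoint fragment were left out, which kept 72.9% to 80.1% of the globin counts of experiment 1 and 92.9% to 98.8% of those of experiment 2. After this step the loci had 189642 to 256964 counts each per sample in experiment 1 and 20672 to 66738 in experiment 2. Replicate 3 of experiment 2 was the shallowest library, and its β-globin profile stood apart from the other 5, with fewer counts near the genes. The differences of experiment 2 that it moved most are given with and without it. With 3 samples, the exact permutation test that flips the sign of the within-sample difference (two-sided) cannot give a p under 0.25, so differences are described by their size, their spread and the number of samples that shared a direction.

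Counts on the viewpoint's own chromosome (cis) made up a similar share at both loci in experiment 1, and a larger share at α in experiment 2. In experiment 1 the cis share was 65.3%, 60.4% and 61.2% from the α promoters in replicates 1, 2 and 3. It was 64.6%, 60.0% and 60.7% from the β promoters of the same samples. The α value was higher within each sample, but by 0.54 percentage points ± 0.19 (SD, n = 3, exact permutation p = 0.25), less than the spread of 2.64 points between samples. In experiment 2 the cis share was 71.7%, 71.2% and 72.0% from α and 67.4%, 68.6% and 63.8% from β. The groups did not overlap, and the difference was 5.06 points ± 2.90 (SD, n = 3, exact permutation p = 0.25). It was 3.47 points without replicate 3. With each listed fragment counted once, the sign turned in both experiments (-1.36 and -0.63 points), so no order of the loci in cis share can be given.

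Contacts were more concentrated around the α-globin genes than around the β-globin genes. Within 100 kb of the viewpoint lay 56.9%, 53.0% and 52.6% of the cis counts from α in experiment 1, against 54.0%, 50.1% and 49.4% from β. In experiment 2 the values were 59.7%, 55.7% and 58.9% from α and 51.0%, 49.9% and 41.9% from β. The mean difference was 3.00 points ± 0.20 (SD, n = 3) in experiment 1 and 10.5 points ± 5.78 (SD, n = 3) in experiment 2, with α higher in every sample. Without replicate 3 the latter was 7.26 points.

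The contact domain was described by the shortest interval that holds 50% of the cis counts. From α this interval was 95.2, 118.8 and 121.9 kb long in experiment 1, and from β 125.1, 180.2 and 198.7 kb. The lengths in experiment 2 were 87.1, 106.7 and 96.2 kb from α, and 161.5, 180.2 and 1829 kb from β. The α interval was the shorter in each of the 6 samples. Its length was 0.68 times that of β in experiment 1 (log2 -0.57 ± 0.16, SD, n = 3, exact permutation p = 0.25) and 0.26 times in experiment 2 (log2 -1.97 ± 1.98, SD, n = 3, exact permutation p = 0.25). Replicate 3 set the latter size, since without it the log2 difference was -0.82. From α the interval reached 68.2 to 81.0 kb upstream and 27.0 to 40.9 kb downstream of the Hba-1 fragment in experiment 1. From β it reached 88.2 to 125.7 kb upstream and 37.0 to 73.0 kb downstream of the Hbb-b2 fragment. The order turned when every listed fragment was counted once (log2 0.31 and 0.39), a setting that ignores how often a contact was seen. It also turned in experiment 1 with 5 kb left out around each viewpoint (log2 0.70).

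**Figure D1:**
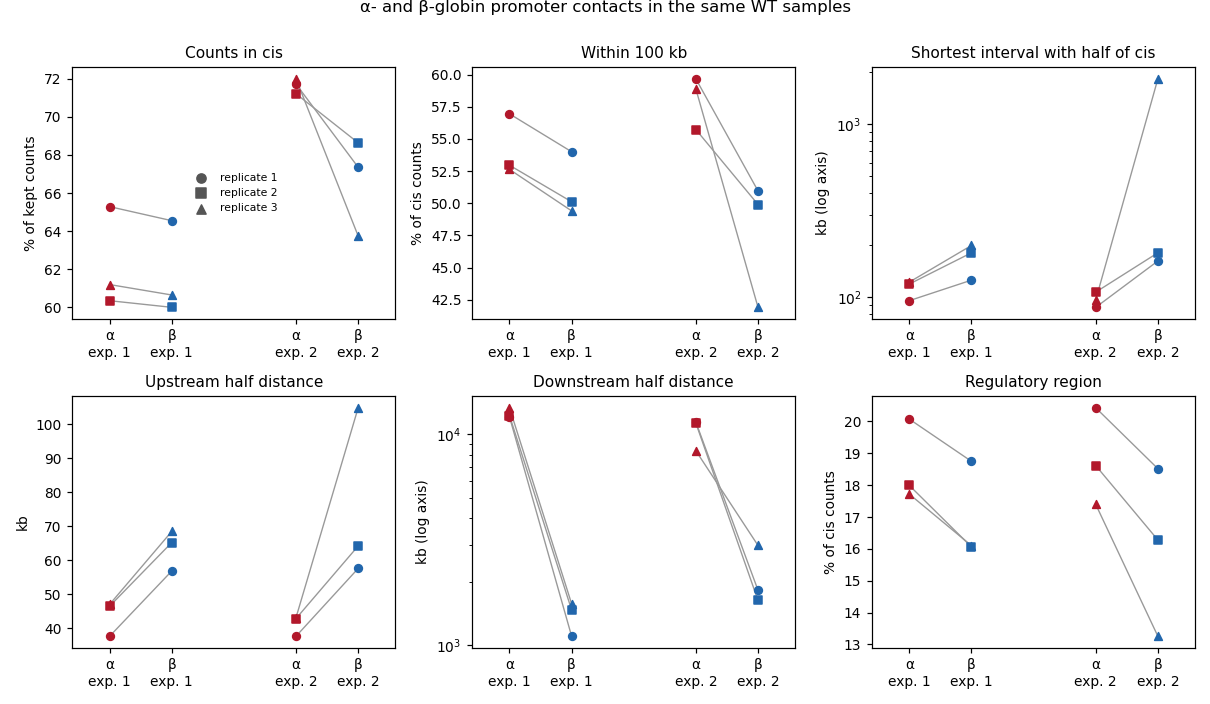
Each point is 1 locus in 1 WT sample and grey lines join the α-globin (red) and β-globin (blue) value of the same sample; marker shapes stand for replicates, and the panels give the share of counts in cis, the share of cis within 100 kb, the shortest interval with 50% of cis counts (log axis), the distances that hold 50% of upstream and of downstream cis counts (downstream on a log axis) and the share of cis in the regulatory region. The α promoters had the larger share within 100 kb and in the regulatory region in every sample, and replicate 3 of experiment 2 had the widest β interval, 1829 kb.

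Upstream of the genes, contacts fell off from the α promoters at shorter distances than from the β promoters. The distance that held 50% of the upstream cis counts was 37.6, 46.4 and 47.0 kb from α in experiment 1 and 56.8, 65.2 and 68.5 kb from β. The same distance in experiment 2 was 37.6, 42.8 and 43.1 kb from α and 57.5, 64.2 and 104.8 kb from β. The groups did not overlap in either experiment, and the α distance was 0.69 times the β distance in experiment 1 (log2 -0.54 ± 0.05, SD, n = 3, exact permutation p = 0.25). The ratio in experiment 2 was 0.56 (log2 -0.83 ± 0.39, SD, n = 3, exact permutation p = 0.25), and the log2 difference was -0.60 without replicate 3. Leaving out 5 kb around each viewpoint removed the difference in experiment 1 (log2 0.02), a setting that also takes away fragments near the enhancer viewpoints of the α cluster.

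The fall with distance was then compared in 37 bins on both sides, with edgeR's quasi-likelihood test on the counts, scaled by the cis counts of the locus and the length of DpnII fragments kept in the bin. A bin was called at an adjusted p under 0.01. In experiment 1, 13 bins were denser from α (35.1% of those tested) and 18 were denser from β (48.6%). In experiment 2, 10 were denser from α (27% of those tested) and 11 were denser from β (29.7%). All 21 bins called in experiment 2 were called the same way in experiment 1. Of these, 17 kept their sign in every pairing of single α and β promoters and with shared fragments counted once at their larger value: 7 were denser from α and 10 sparser. The bins described below are mainly those 17, a choice made after their values were seen. Most bins were called, so a call alone says little. The bins hold different sequence at the 2 loci, and the test measures only whether a difference exceeds the spread between samples.

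In density per length, counted as counts per kb per 100,000 cis counts, α exceeded β in the nearest upstream bins. In the bins, fragment length was counted once for each of the summed promoters. Densities given below for steps, genes, single fragments and the regulatory region count it once per locus. Those values therefore run higher and are not on the scale of the bins. Between 5 and 10 kb upstream the density in experiment 1 was 740, 681 and 664 from α and 256, 256 and 236 from β. The ratio was 2.78 (log2 1.48 ± 0.04 SE, edgeR adjusted p = 4.11e-48) in experiment 1 and 2.88 (log2 1.52 ± 0.16 SE, edgeR adjusted p = 3.40e-13) in experiment 2. Between 20 and 30 kb upstream α exceeded β by a factor of 2.22 in experiment 1 and 2.36 in experiment 2. Between 2 and 5 kb the ratio was 1.78 and 1.80, but it turned in both experiments with each listed fragment counted once (log2 -0.66 and -0.70). From 30 to 50 kb upstream, no bin was called denser from α in either experiment.

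Downstream, the nearest bins gave no single order. Between 5 and 10 kb α was denser by a factor of 1.69 in experiment 1 and 1.86 in experiment 2, though this bin is outside the 17 because its sign turned in at least 1 pairing of single promoters or with the larger count, and between 20 and 40 kb no bin was called. Between 80 and 100 kb downstream the density was 5.04, 4.90 and 5.24 from α in experiment 1 and 21.7, 22.2 and 20.8 from β. The samples of experiment 2 had 3.32, 5.85 and 3.55 from α and 18.4, 18.3 and 12.8 from β. The α density was 0.23 times the β density in experiment 1 (log2 -2.09 ± 0.08 SE, edgeR adjusted p = 7.32e-39) and 0.26 times in experiment 2 (log2 -1.94 ± 0.22 SE, edgeR adjusted p = 7.45e-13). All the bins from 60 to 300 kb were sparser from α in both experiments.

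The order changed again further out. Between 300 and 500 kb downstream α was denser by a factor of 1.65 in experiment 1 and 1.67 in experiment 2. From 1 to 10 Mb downstream β was denser in each of the 3 bins. The lowest α over β ratio was in the bin from 2 to 5 Mb, at 0.22 (log2 -2.21 ± 0.06 SE, edgeR adjusted p = 8.60e-47) in experiment 1 and 0.15 (log2 -2.77 ± 0.19 SE, edgeR adjusted p = 3.38e-22) in experiment 2. Beyond 10 Mb downstream α was denser by a factor of 2.27 and 2.03, and beyond 10 Mb upstream it was sparser (0.69 and 0.52 times). Protein-coding genes in the stretch from 1 to 10 Mb downstream numbered 23 at α and 119 at β, of which 22 were olfactory receptor genes. Upstream the same distances held 47 and 170. There α was denser from 1 to 2 Mb and from 2 to 5 Mb in experiment 1 (ratios 1.49 and 1.41). These bins were not called in experiment 2. From 5 to 10 Mb upstream α was sparser in both experiments (ratios 0.62 and 0.47).

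The far downstream counts decide what a single distance says. The chromosome reached 89.7 Mb downstream at α and 111 Mb at β, and 32.2 and 41.5 Mb upstream. Distances over the whole chromosome therefore span unequal lengths. The distance that held 50% of all downstream cis counts was 12.1, 12.3 and 13.4 Mb from α in experiment 1 and 1.10, 1.47 and 1.57 Mb from β. The distance in experiment 2 was 11.4, 11.3 and 8.36 Mb from α and 1.82, 1.63 and 2.97 Mb from β. Counting only contacts within 10 Mb, it was 18.7 kb ± 1.99 (SD, n = 3) from α and 77.3 kb ± 12.6 (SD, n = 3) from β in experiment 1, and 18.2 kb ± 1.68 and 108.3 kb ± 36.4 (SD, n = 3 each) in experiment 2, where β was at 87.2 kb without replicate 3. With the promoters summed, α thus had the longer distance over the whole chromosome and the shorter one within 10 Mb. The first of these orders depended on the promoter: in experiment 1 the distance was 908 to 4051 kb from Hba-1 and 17511 to 17617 kb from Hba-2. Hba-1 against Hbb-b1 gave a log2 difference of -0.0037 in experiment 1 and -2.24 in experiment 2, and Hba-1 against Hbb-b2 gave 2.31 and -0.95. Cis counts beyond 10 Mb were 10.9 to 12.8 times as dense per Mb as counts on other chromosomes from α in experiment 1 and 7.29 to 8.31 times from β.

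**Figure D2:**
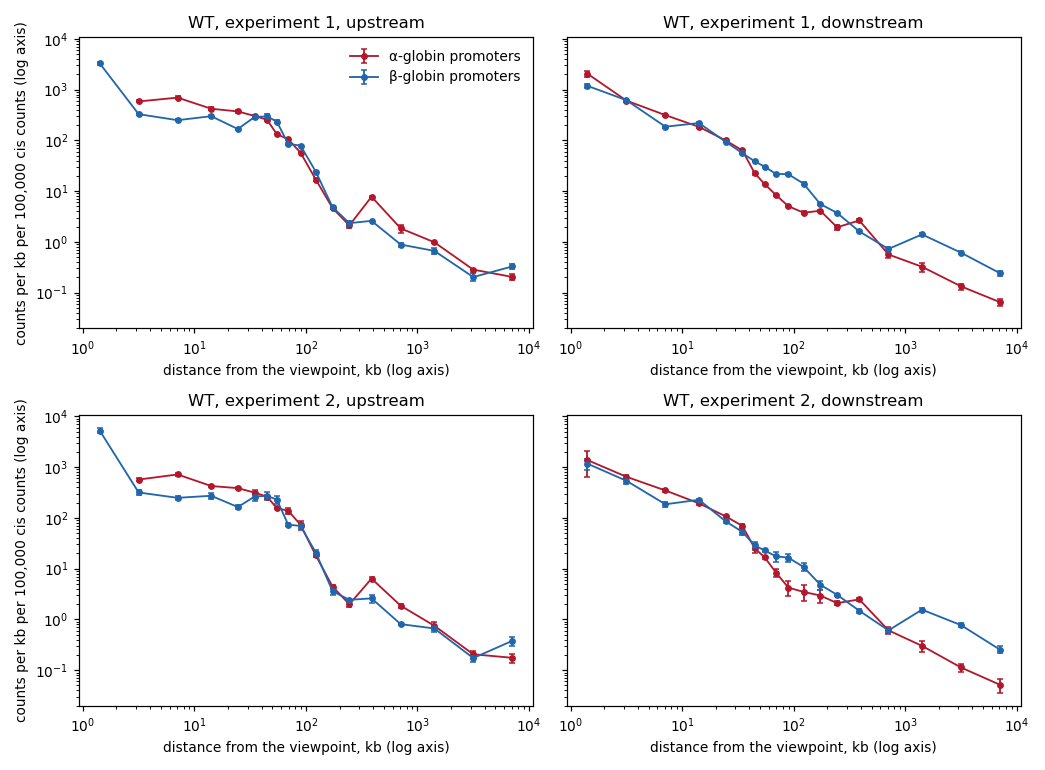
Counts per kb per 100,000 cis counts (log axis) against distance from the viewpoint in kb (log axis), upstream and downstream in experiments 1 and 2, for the α-globin (red) and β-globin (blue) promoters; points are means of 3 WT samples and bars their SD, each at the geometric middle of its bin up to 10 Mb. The α curve lies above the β curve between 5 and 10 kb upstream (695 against 250 in experiment 1) and below it between 80 and 100 kb downstream (5.06 against 21.5). Fragment length is counted once for each promoter.

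Both loci had a second maximum far upstream, at different distances. Densities of steps and genes count fragment length once per locus, so they run higher than those of the bins. In steps of 20 kb from the Hba-1 fragment, density fell to 3.61 ± 0.37 (SD, n = 3) at 200 to 220 kb in experiment 1 and rose to 28.5 ± 2.02 (SD, n = 3) at 440 to 460 kb. In experiment 2 these steps had 4.46 ± 1.34 and 23.2 ± 5.65 (SD, n = 3 each). From β, the density at 440 to 460 kb was 3.48 ± 0.40 in experiment 1 and 3.35 ± 0.50 in experiment 2 (SD, n = 3 each). Its own densest step beyond 300 kb was at 520 to 540 kb, with 8.84 ± 0.51 in experiment 1 and 9.03 ± 3.04 in experiment 2 (SD, n = 3 each). The bin from 300 to 500 kb was denser from α by a factor of 2.99 in experiment 1 (log2 1.58 ± 0.06 SE, edgeR adjusted p = 8.70e-37) and 2.48 in experiment 2 (log2 1.31 ± 0.17 SE, edgeR adjusted p = 1.06e-10). From 500 kb to 1 Mb upstream α was denser by a factor of 2.06 in experiment 1 and 2.31 in experiment 2. No protein-coding gene lay in the densest α step. That step lay beyond the start of Cpeb4, which encodes an RNA-binding protein that controls translation in late red cell precursors. Cpeb4 spans 347.8 to 411.2 kb from the Hba-1 fragment, and its own density was 13.8 ± 0.13 in experiment 1 and 9.12 ± 2.88 in experiment 2 (SD, n = 3 each). The steps and the gene were named after their values were seen.

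**Figure D3:**
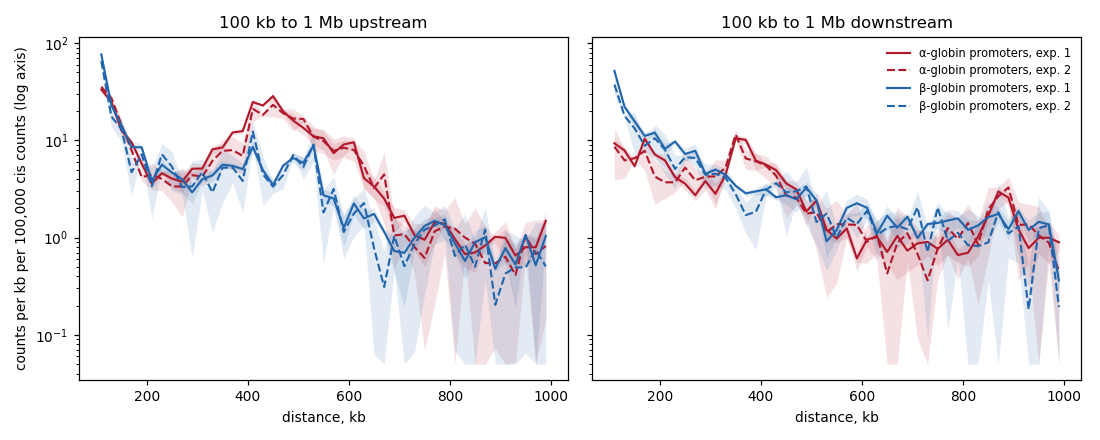
Counts per kb per 100,000 cis counts (log axis) in steps of 20 kb against distance in kb from the promoter viewpoint nearest the regulatory region, from 100 kb to 1 Mb on each side; lines are means of 3 WT samples (solid, experiment 1; dashed, experiment 2) and shading is their SD. Upstream, the α lines rise to 28.5 in experiment 1 and 23.2 in experiment 2 at 440 to 460 kb, where the β lines are at 3.48 and 3.35.

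A straight line was also fitted to log density against log distance from 10 kb to 1 Mb. Upstream the slope was -1.68 ± 0.06 from α and -1.78 ± 0.04 from β in experiment 1 (SD, n = 3 each), a difference of 0.10 with α higher in 3 of 3 samples (exact permutation p = 0.25). The slopes in experiment 2 were -1.72 ± 0.04 and -1.78 ± 0.07 (SD, n = 3 each), with α higher in 2 of 3 samples (exact permutation p = 0.50). Downstream the slopes were -1.44 and -1.44 in experiment 1 and -1.48 and -1.47 in experiment 2, and the difference was smaller than its SD in both. Within 100 kb, more counts lay upstream than downstream at both loci. The log2 ratio of upstream to downstream was 1.42 ± 0.01 from α and 1.28 ± 0.03 from β in experiment 1, and 1.44 ± 0.03 and 1.30 ± 0.12 in experiment 2 (SD, n = 3 each). This ratio depends on where a promoter sits in its cluster: in experiment 1 it was 0.93 for Hba-1 and 0.88 for Hbb-b2, and 2.03 for Hba-2 and 1.83 for Hbb-b1. With 5 kb left out around each viewpoint the difference turned in both experiments (-0.11 and -0.13). Without replicate 3 the difference of experiment 2 was 0.058 instead of 0.14.

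The upstream regulatory region took a similar share of contacts at both loci, slightly larger at α. At α the region was chr11:32145277-32176399, from the R1 enhancer fragment to the embryonic gene Hba-x. At β a window of the same 31123 bp was set beyond Hbb-y, chr7:111001755-111032877, which takes in the LCR and the olfactory receptor gene Olfr66. Seen from the nearest promoter, they lay 7.00 to 38.1 kb and 25.5 to 56.7 kb away. In experiment 1 the region held 20.1%, 18.0% and 17.7% of cis counts from α and 18.7%, 16.1% and 16.1% from β. The samples of experiment 2 had 20.4%, 18.6% and 17.4% from α and 18.5%, 16.3% and 13.3% from β. The α share was higher within each of the 6 samples while the groups overlapped, by a factor of 1.10 in experiment 1 (log2 0.13 ± 0.03, SD, n = 3, exact permutation p = 0.25) and 1.18 in experiment 2 (log2 0.24 ± 0.13, SD, n = 3, exact permutation p = 0.25). Without replicate 3 the latter log2 difference was 0.17. In experiment 1 the order turned between Hba-2 and Hbb-b2 (log2 -0.10) and with 5 kb left out around each viewpoint (log2 -0.077), and in experiment 2 with each listed fragment counted once (log2 -0.12).

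The α region counted for less length, because the zones around the R1 and R2 enhancer viewpoints were left out: 24.8 kb of fragments were kept at α and 31.0 kb at β. Per length the region was denser from α, at 808, 724 and 714 counts per kb per 100,000 cis counts in experiment 1 against 604, 517 and 519 from β. The groups did not overlap. In experiment 2 the density was 823, 750 and 701 from α and 596, 524 and 427 from β, and again the groups were apart.

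The β region lies farther from its genes, so the loci were also set side by side at matched distances. Here, as in the bins, fragment length was counted once for each promoter. The densities at matched distances are therefore not on the scale of the region's densities above. At the distances spanned by the α region, upstream density in experiment 1 was 385 ± 25.1 from α and 262 ± 16.9 from β (SD, n = 3 each). At the distances spanned by the β region it was 212 ± 8.68 from α and 220 ± 17.5 from β in experiment 1, with α lower in each sample. The values in experiment 2 were 238 ± 12.6 from α and 207 ± 30.3 from β (SD, n = 3 each), with α higher in each sample. The order at these distances thus differed between the experiments. On the downstream side the same distances had 30.4 ± 0.18 from α and 40.0 ± 0.31 from β in experiment 1, and 33.2 ± 0.57 and 33.2 ± 2.46 in experiment 2 (SD, n = 3 each). The region was also denser than the stretch of equal length just beyond it, by a factor of 2.90 to 3.32 from α and 3.06 to 3.52 from β in experiment 1. In experiment 2 this factor was 2.18 to 2.71 from α and 3.42 to 4.30 from β.

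**Figure D4:**
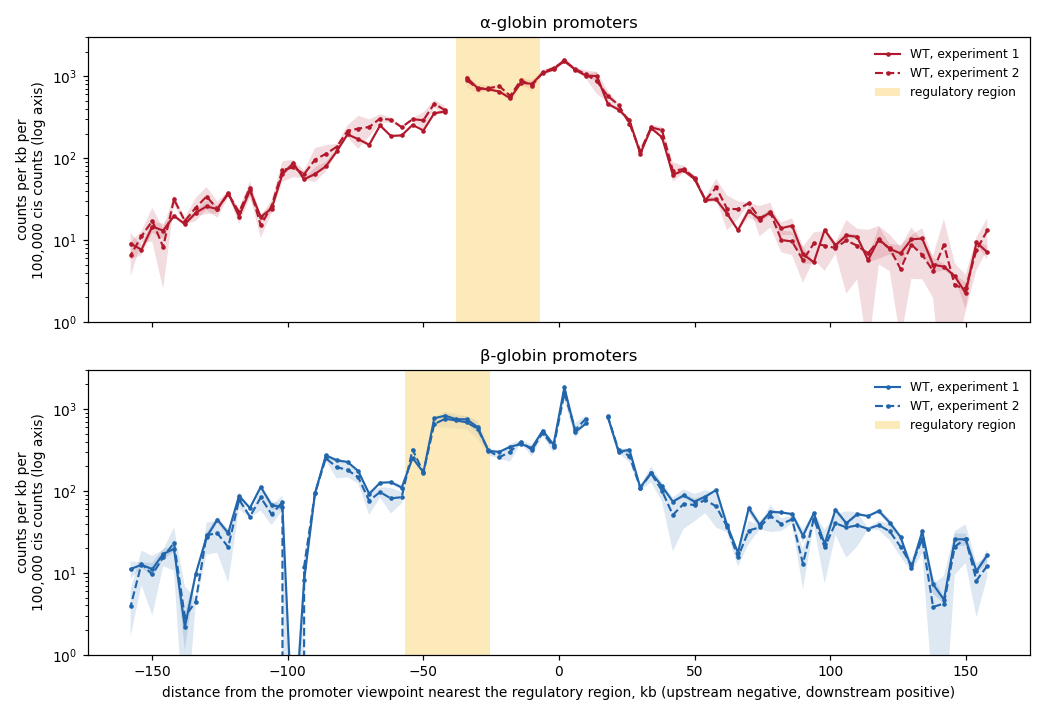
Counts per kb per 100,000 cis counts (log axis) in steps of 4 kb against distance in kb from the promoter viewpoint nearest the regulatory region, for α-globin (top) and β-globin (bottom); lines are means of 3 WT samples (solid, experiment 1; dashed, experiment 2), shading is their SD, and the yellow band marks the regulatory region, 7.00 to 38.1 kb upstream at α and 25.5 to 56.7 kb at β. The β profile steps up inside the band, the α profile is high from the band through the genes, and gaps are steps with no kept fragment.

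The single promoters kept the order of their positions. In experiment 1 the regulatory region took 20.4% ± 1.46 of cis counts from Hba-1 and 16.7% ± 1.11 from Hba-2, and 18.0% ± 1.71 from Hbb-b2 and 15.8% ± 1.38 from Hbb-b1 (SD, n = 3 each). In each cluster the promoter nearer to the region had the larger share in all 6 samples. As the lists of paired promoters overlap, the size of this step was not tested.

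Within the regions, DpnII fragments of at least 100 bp were ranked by mean density in experiment 1. The densest α fragment, chr11:32176031-32176155, lay 7.30 kb from the Hba-1 fragment, next to Hba-x, and had 2430, 2089 and 2212 counts per kb per 100,000 cis counts in experiment 1. It had 2078, 2070 and 573 in experiment 2, the last in the shallow replicate 3. The other 2 of the first 3 α fragments lay at 7.45 and 7.96 kb. The densest β fragment, chr7:111014601-111014739, lay 38.5 kb from the Hbb-b2 fragment within the LCR window and had 2198, 1854 and 1663 in experiment 1 and 2805, 2307 and 1529 in experiment 2. The others lay at 47.5 and 31.8 kb. The first 3 α fragments thus sat at the edge of the region beside the genes, and the first 3 β fragments were spread over its window. This order is that of experiment 1: among the 55 α fragments ranked, the first 3 held places 1 to 20 in replicates 1 and 2 of experiment 2 and places 22 to 39 in replicate 3. Both sequences overlay no annotated exon and are shown, as the plus strand, because they had the highest contact density of their regions, with capitals at AGATAA or its complement TTATCT, the motif bound by the erythroid factor GATA1.

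α, densest fragment: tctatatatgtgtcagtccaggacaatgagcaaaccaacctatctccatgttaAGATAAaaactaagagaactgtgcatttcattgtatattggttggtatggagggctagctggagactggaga
β, densest fragment: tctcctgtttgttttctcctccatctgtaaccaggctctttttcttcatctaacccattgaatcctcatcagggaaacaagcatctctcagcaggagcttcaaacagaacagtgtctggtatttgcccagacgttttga

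The motif occurred once in the α fragment and not in the β fragment, and 7.46% and 8.69% of windows of the same length on chromosomes 11 and 7 held it. Over the regions, 14 of 70 kept α fragments and 18 of 72 kept β fragments held it.

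Genes of the clusters and their neighbours were described by density, with no test. The 4 adult genes themselves lay in the zones left out. Hba-x, the embryonic α-like gene, had 1195 ± 29.3 counts per kb per 100,000 cis counts in experiment 1 (SD, n = 3). The θ-globin genes Hbq1b and Hbq1a, between and beyond the adult genes, had 1683 ± 96.0 and 1965 ± 151 (SD, n = 3 each). They rest on 0.799 and 0.332 kb of fragments. At β, the embryonic genes Hbb-bh1 and Hbb-y had 381 ± 10.0 and 441 ± 16.2 and Hbb-bh2 had 224 ± 26.1 (SD, n = 3 each). The embryonic α gene lies closer to its viewpoint than those of β.

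Outside the clusters, in experiment 1, Nprl3 had 497 ± 22.0, Mpg, a DNA glycosylase gene that overlaps the Nprl3 span, 242 ± 9.32, and Rhbdf1, which encodes an inactive rhomboid protein, 208 ± 7.71 (SD, n = 3 each). On the downstream side Sh3pxd2b, which encodes an adaptor protein of podosomes, had 10.7 ± 0.40, Ubtd2 6.68 ± 0.40 and Efcab9 3.54 ± 0.49 (SD, n = 3 each). The β cluster is flanked by olfactory receptor genes, which encode odorant receptors of sensory neurons. Upstream, Olfr66, Olfr64 and Olfr65 had 487 ± 30.7, 160 ± 2.36 and 262 ± 14.4, and downstream, Olfr67, Olfr68 and Olfr69 had 127 ± 4.32, 98.2 ± 14.1 and 103 ± 1.99 (SD, n = 3 each). Olfr66 rests on 0.363 kb of fragments. Experiment 2 gave other means for some of these genes, such as 297 ± 52.6 for Rhbdf1 and 64.6 ± 28.9 for Olfr69 (SD, n = 3 each). Distances of these genes differ between the clusters, so their densities are not compared.

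The counts were last divided into 9 intervals with the same role at both loci and tested with edgeR as a share of all kept counts, cis and trans. In experiment 1, 4 intervals took a larger share from α (44.4% of those tested) and 4 a smaller one (44.4%). In experiment 2, 1 took a larger (11.1%) and 1 a smaller share (11.1%), and neither was called without replicate 1. Both intervals called in experiment 2 were called the same way in experiment 1. From the regulatory region out to 1 Mb upstream, α had 10.4% of all counts in experiment 1 and 13.4% in experiment 2, and β 6.62% and 6.15%. The ratio was 1.57 (log2 0.65 ± 0.02 SE, edgeR adjusted p = 1.11e-11) and 2.17 (log2 1.12 ± 0.16 SE, edgeR adjusted p = 1.11e-05). Beyond 1 Mb upstream, α had 7.40% and 7.13% and β 11.5% and 14.1%, a ratio of 0.65 and 0.51. With cis counts limited to 10 Mb this order turned in experiment 1 (log2 0.020).

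The regulatory region itself was called in experiment 1, at 11.6% of all counts from α and 10.5% from β (ratio 1.11, log2 0.15 ± 0.01 SE, edgeR adjusted p = 1.02e-06). Its shares in experiment 2 were 13.5% and 10.7% (ratio 1.27, log2 0.35 ± 0.14 SE, edgeR adjusted p = 0.042) and was not called. The stretch from the region to the first adult gene, which holds the embryonic genes of each cluster, took 3.39% from α and 5.63% from β in experiment 1. In experiment 2 it took 4.25% and 5.80% (edgeR adjusted p = 0.040) and was not called. The other chromosomes were called in neither experiment (edgeR adjusted p = 0.018 and 0.024), with 37.7% and 38.3% in experiment 1.

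**Figure D5:**
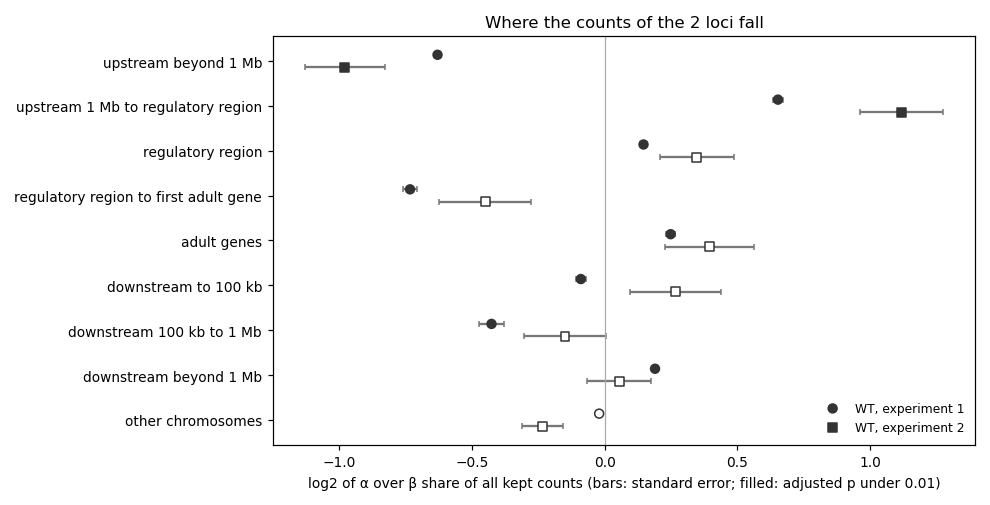
The log2 ratio of the α over the β share of all kept counts in 9 intervals with the same role at both loci, with circles for experiment 1 and squares for experiment 2 (3 WT samples each); bars are standard errors of edgeR's fit and filled markers have an adjusted p under 0.01. The stretch from the regulatory region to 1 Mb upstream lies to the right in both experiments (0.65 and 1.12) and the part beyond 1 Mb upstream to the left (-0.63 and -0.98).

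Between the clusters, contacts were few. In 1 Mb around the β genes, the α promoters had 40, 73 and 56 counts in experiment 1, which was 1.44, 1.86 and 1.64 times the mean density over other chromosomes. The β promoters had 83, 85 and 75 counts around the α genes, 3.17, 2.27 and 2.36 times the mean. A window of the same size around Slc25a37, which encodes the mitochondrial iron importer of red cell precursors, had 2.87, 2.67 and 1.17 times the mean from α and 1.68, 1.31 and 1.82 times from β. Chromosome 11 as a whole had 1.32 to 1.35 times the mean from β. In experiment 2 these windows held 1 to 17 counts each, too few to describe.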

How the data were processed

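The values are counts per DpnII fragment and viewpoint, deposited by the authors for each sample of Ter119+ spleen cells. The submitters' processing notes name Trim Galore, Bowtie and the mm9 build. Combined α and β viewpoints, which repeat the single ones, were left out. Every listed fragment of chromosomes 7, 11 and 14, where this was checked, matched a digest of the mm9 reference; genes are those of GENCODE vM1. The viewpoints, intervals and gene lists were chosen with earlier results of these data known; named genes were the globin genes and the nearest 3 coding genes on each side. Fragments within 1 kb of any viewpoint were removed and both promoters of a locus summed. Differences were taken within samples, since both loci share a library. Bins and intervals with at least 10 counts were tested with edgeR 4.0.16 (sample as block, Benjamini-Hochberg, threshold 0.01) in R 4.3.3, with DESeq2 1.42.0 as an alternative; other steps used Python 3.11.15. Intervals on counts were not computed: reads without molecular identifiers are not independent molecules, and depth ran from 65610 to 1120609 counts per sample. On simulated data with a change of 1.5-fold, 96.2% of changed bins were called at the depth of experiment 1 and 90% at that of experiment 2. Of unchanged bins, 0.741% and 0.185% were called. These shares refer to depth and hold only for a spread between samples like that simulated. Standard errors of the fit were larger in experiment 2, such as 0.16 against 0.04 log2 between 5 and 10 kb upstream. Alternatives were other zones, promoters, windows, filters, thresholds and models, and each replicate left out.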

Additional observations from a re-analysis of the deposited data

How the results depend on the processing

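Of the 200 recalculated values of the 8 within-sample measures, 169 kept their direction and 31 did not. A zone of 5 kb turned, in experiment 1, the cis share (-2.44 points), upstream distance (log2 0.022), shortest interval (log2 0.70), downstream slope (-0.030), upstream to downstream ratio (-0.11) and regulatory share (log2 -0.077), and the ratio of experiment 2 (-0.13). It leaves 19.3 kb of the α region against 31.0 kb at β. Counting each fragment once turned the cis share (-1.36 and -0.63), the shortest interval (0.31 and 0.39) and, in experiment 2, the downstream slope (0.13) and regulatory share (-0.12). Within 10 Mb the cis share of experiment 1 was -0.41 and the log2 downstream distance -2.04 and -2.53. Hba-1 against Hbb-b1 compares the nearest α with the farthest β promoter and turned the upstream to downstream ratio (-0.90 and -1.01), the downstream distance (-0.0037 and -2.24) and, in experiment 1, the downstream slope (-0.26). Hba-2 against Hbb-b2 turned the regulatory share of experiment 1 (-0.10) and the slopes of experiment 2 (upstream -0.0030, downstream 0.28). The downstream slope also turned from 50 kb to 5 Mb in experiment 1 (-0.052), and in experiment 2 with the larger count of shared fragments (0.025) and for the nearest promoters (0.015), a pairing added after seeing the data that gave a downstream distance of -0.95. Leaving out 1 replicate gave downstream slopes of -0.0044 to 0.017 in experiment 1 and -0.032 to 0.023 in experiment 2; without replicate 3 the ratio of experiment 2 was 0.058.

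The sample block changed the bins little: without it 29 and 19 were called against 31 and 21. For the role intervals the fit without the replicate block called 5 in experiment 1 against 8, and 4 in experiment 2 against 2. One fit for both experiments called 4 and 6. In experiment 2, 4 were called with a zone of 5 kb, with only globin viewpoints left out, for Hba-2 against Hbb-b2 and with the larger count of shared fragments, 5 with each fragment once, and 6 by DESeq2 or at 0.05. Leaving out 1 replicate gave 0 to 2, the 0 being without replicate 1 (edgeR, with 2 intervals at an unadjusted p under 0.05). Counting each fragment once left 17 and 13 bins called, and splitting the bins gave 60 and 37 of 71. With TMM factors the split in experiment 1 became 17 denser and 15 sparser. Among the bins and intervals named, each fragment once turned 2 to 5 kb upstream (log2 -0.66 and -0.70), 60 to 80 kb downstream in experiment 1 (0.043), the adult genes (-0.66) and the regulatory region (-0.048). The region also turned with a zone of 5 kb (-0.14) and for Hba-2 against Hbb-b2 (-0.091), which also turned downstream to 100 kb (0.11). Within 10 Mb, the parts beyond 1 Mb turned upstream (0.020) and downstream (-2.05). The causes were not tested. Experiment 2 had fewer counts than experiment 1, and its replicate 3 the fewest.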
